A study of Rattus norvegicus with 24 samples.

Results

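The genes of iron uptake, storage and release were measured together with hemoglobin in the medial gastrocnemius, a hindlimb muscle rich in fast fibres, of 24 male Wistar rats. The 10 genes are Tfrc, Fth1, Ftl1, Slc40a1, Slc11a2, Hmox1, Ireb2, Hbb, Hba-a1 and Hba-a3, out of 10851 genes in the deposited table. They were found by their symbols, and all 10 were present. The set was chosen by reading earlier results of these same counts, in which cachectic rats had less Tfrc and, averaged over both pairs of groups, more hemoglobin transcript. The cachexia effects of those 4 genes are therefore described here without a test. The other 6 genes were tested in every comparison.

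Each of the 4 groups held 6 rats, with each rat as 1 library. Sed rats received saline and stayed sedentary, and Ex rats received saline and trained on a treadmill. CC-Sed rats received monocrotaline and stayed sedentary, and CC-Ex rats received monocrotaline and trained. CC stands for cardiac cachexia, the muscle and weight loss of heart failure. Monocrotaline is a plant alkaloid that injures lung vessels and so overloads the right ventricle, and the CC groups hold surviving rats that met the study's criteria for cachexia. The ages of the rats are not given in the sources used here.

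Iron reaches most cells bound to transferrin, which the transferrin receptor (Tfrc) carries into endosomes, and Slc11a2 then moves the iron into the cytosol. Ferritin, built from heavy (Fth1) and light (Ftl1) chains, stores iron, ferroportin (Slc40a1) exports it, and heme oxygenase 1 (Hmox1) frees it from heme. Iron regulatory protein 2 (Ireb2) binds stem-loops in the mRNAs of Tfrc and ferritin, among others, when iron is scarce, which protects the Tfrc transcript from decay and holds back the translation of ferritin. Skeletal muscle uses iron for myoglobin and for the heme and iron-sulfur proteins of its mitochondria. The beta (Hbb) and alpha (Hba-a1, Hba-a3) globins of hemoglobin are made by red cell precursors, and they served as a reference for blood in the muscle.

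Total counts per rat lay between 37816239 and 50350554. Levels are given below as CPM, counts relative to a common library total, scaled by TMM, the trimmed mean normalization of edgeR, and they are compared between rats and not between genes. Of 10 listed skeletal muscle markers 8 were measured, and their summed level lay between 110860 and 244196 CPM in the 24 rats. CC-Ex replicate 5 stood apart from the other CC-Ex rats. It held the highest Ireb2, Hmox1 and Ftl1 and the lowest Tfrc, Slc40a1 and hemoglobin of its group, and values without it are given where they matter. In this bulk tissue, fewer cells of a type and less RNA per cell cannot be told apart.

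Tfrc, which brings transferrin-bound iron into the cell, had the lowest levels in the monocrotaline groups. In Sed, Tfrc ranged from 161 to 241 CPM with a median of 193 CPM. In CC-Sed it ranged from 24.8 to 234 CPM with a median of 43.4 CPM. In all, 5 of the 6 CC-Sed rats were below every Sed rat, and the exception was replicate 4, which held 234 CPM against at most 62.1 CPM in the other 5. In Ex, Tfrc spread from 95.7 to 475 CPM with a median of 285 CPM. In CC-Ex it spread from 26.8 to 122 CPM with a median of 45.0 CPM. In all, 5 of the 6 CC-Ex rats were below every Ex rat, and replicate 4 alone overlapped with them.

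The fitted Log2FC of Tfrc, the log2 ratio of CC to saline, was -1.45 (standard error 0.49) in Sed vs. CC-Sed. It was -2.17 (standard error 0.50) in Ex vs. CC-Ex. The average of both effects, called the average CC effect below, was -1.81 (standard error 0.35), or 3.51-fold lower. Without CC-Sed replicate 4 the sedentary Log2FC was -2.30. These values chose the gene, so they carry no test here. The difference between the trained and the sedentary effect was -0.72 (standard error 0.68), and it was 0.13 without CC-Sed replicate 4. The order of the group medians was Ex, Sed, CC-Ex and CC-Sed, in which Ex overlapped with Sed and CC-Ex with CC-Sed.

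The promoter of Tfrc is shown because Tfrc is a known target of hypoxia-inducible factors and because hypoxia response genes, described further on, were among the markers measured. In the average CC effect the median Log2FC of those hypoxia genes was 0.83, while Tfrc was lower. A link between them was not tested. The sequence is the 150 bases before the transcription start in the RefSeq annotation of build GRCr8, on the minus strand at chr11:81690319-81690468. Capitals mark the core of the hypoxia response element, ACGTG, and the half-site of the cyclic AMP response element, TGACG.
Tfrc: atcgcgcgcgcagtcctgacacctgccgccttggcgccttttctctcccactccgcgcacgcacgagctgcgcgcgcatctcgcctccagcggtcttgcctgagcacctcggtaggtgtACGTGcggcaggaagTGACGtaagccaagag
The matches begin 31 and 16 bases before the start site and do not overlap. On either strand, ACGTG was found in 16.6% and TGACG in 18.2% of the 33469 promoters of 250 upstream bases in that annotation. Both are short words that occur widely, and a match in this window does not say that a factor bound there.

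**Figure D1:**
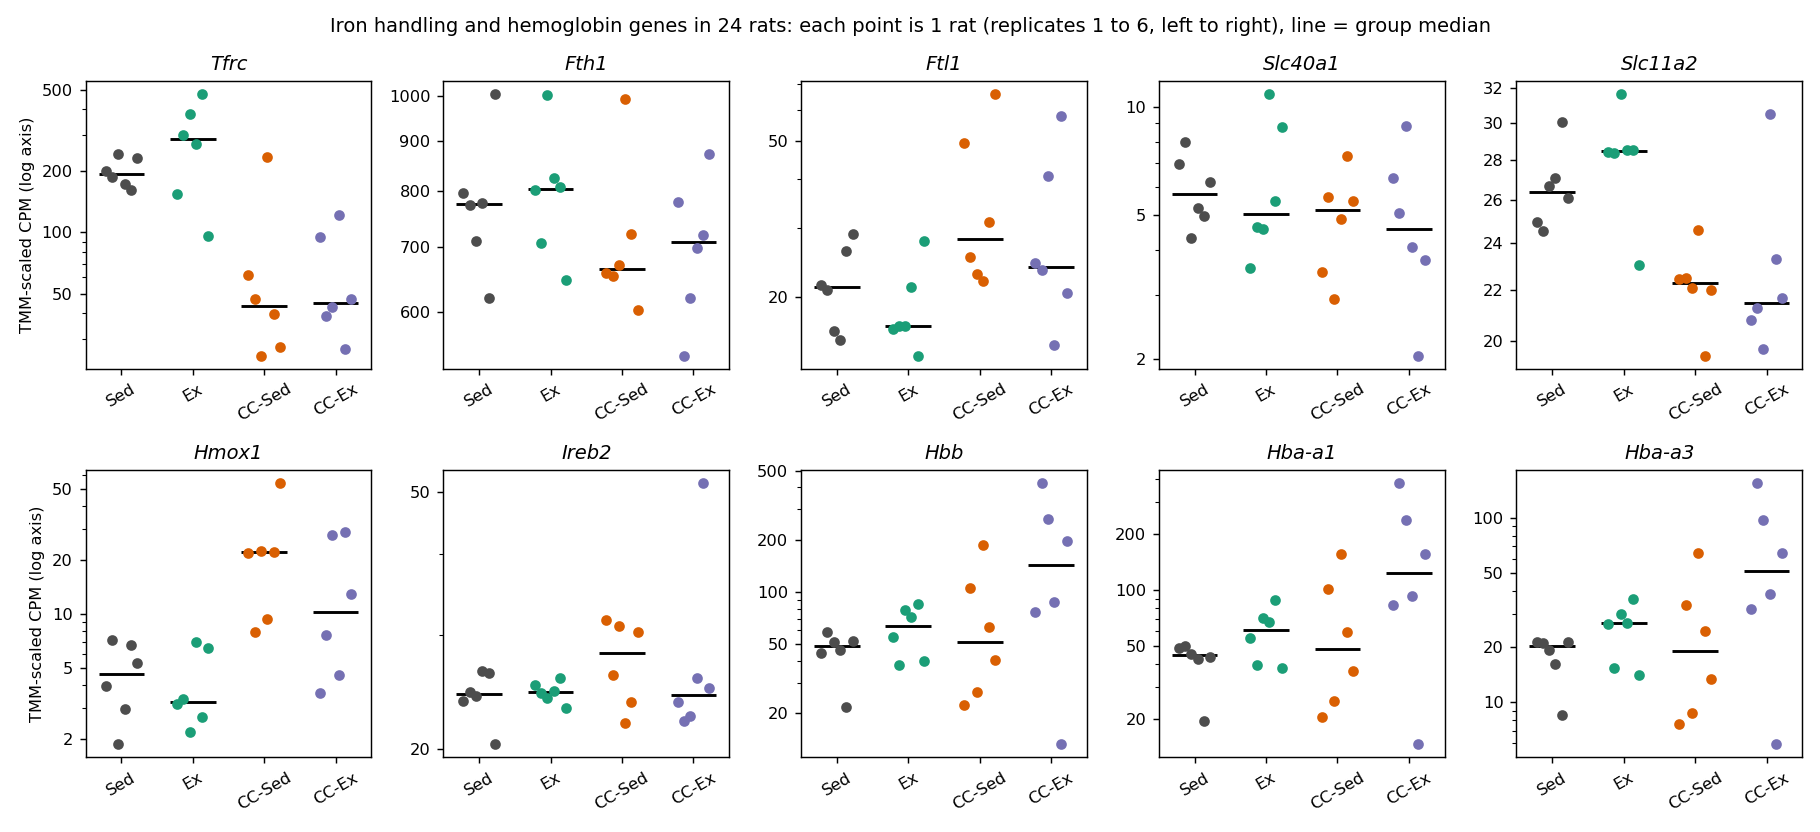
TMM-scaled CPM (log axes, 1 panel per gene) of the 10 genes in the 4 groups, where a point is 1 rat and a line the group median. For each CC group 5 of the 6 rats lie below all rats of the matching saline group for Tfrc, and all 6 CC-Sed rats lie above all Sed rats for Hmox1.

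Hmox1, which opens the heme ring and releases its iron, had the largest Log2FC of the 6 tested genes. In Sed it ranged from 1.87 to 7.16 CPM with a median of 4.65 CPM. In CC-Sed it ranged from 7.98 to 53.98 CPM with a median of 22.1 CPM. The groups did not overlap, since every CC-Sed rat was above every Sed rat. In the whole table, 2.32% of genes were higher in CC-Sed with no overlap. Hmox1 rose 4.93-fold, with a Log2FC of 2.30, a standard error of 0.53 and an edgeR adjusted p of 0.0164. The rise lost significance without CC-Sed replicate 6, the rat with 53.98 CPM (Log2FC 1.83, edgeR adjusted p = 0.0602).

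In trained rats the Hmox1 levels of the groups overlapped. Ex ranged from 2.20 to 7.00 CPM with a median of 3.24 CPM, and CC-Ex from 3.61 to 28.6 CPM with a median of 10.2 CPM. All 6 CC-Ex rats exceeded the Ex median and 4 exceeded the highest Ex rat. The Log2FC of 1.78 (standard error 0.52) missed the threshold (edgeR adjusted p = 0.0786). Over both pairs of groups the average CC effect on Hmox1 was 2.04 (standard error 0.37, edgeR adjusted p = 0.00102), and Hmox1 kept its call whichever of the 24 rats was omitted. The trained minus the sedentary effect was -0.52, with a 95% interval from -2.02 to 0.97, and it did not pass the test (edgeR adjusted p = 1.00). Without CC-Sed replicate 6 it was -0.07.

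Macrophages also make Hmox1 when they clear red cells. Of 11 listed macrophage markers 9 were measured and none passed the test in either CC comparison or in the average CC effect. Their summed level ranged from 26.7 to 190 CPM in Sed and between 52.1 and 183 CPM in CC-Sed, with medians of 74.0 and 107 CPM. It ranged from 45.7 to 239 CPM in Ex and between 36.8 and 281 CPM in CC-Ex, with medians of 107 and 74.9 CPM. The median Log2FC of the list was 0.11 in Sed vs. CC-Sed and -0.22 in Ex vs. CC-Ex. Single markers ran from -0.35 (C1qa) to 0.77 (Cd163) in Sed vs. CC-Sed. In Ex vs. CC-Ex they ran from -0.62 (C1qa) to 0.66 (Cd163). Adgre1 and Marco were not analysed here, and the part of macrophages in the Hmox1 values was not tested.

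Of the ferritin chains, the light one was called and the heavy one was not. Ftl1, the light chain, ranged from 15.5 to 28.9 CPM in Sed (median 21.1) and between 21.9 and 65.9 CPM in CC-Sed (median 28.1). All 6 CC-Sed rats exceeded the Sed median. Ftl1 ranged from 14.1 to 27.7 CPM in Ex (median 16.8) and between 15.0 and 58.0 CPM in CC-Ex (median 23.9), where 5 of 6 rats exceeded the Ex median. In sedentary rats its Log2FC was 0.74 and in trained rats 0.68, each with a standard error of 0.30 (edgeR adjusted p = 0.119 and 0.189). They were 0.46 without CC-Sed replicate 6 and 0.38 without CC-Ex replicate 5. Neither passed alone, but the average CC effect of 0.71 (standard error 0.21, edgeR adjusted p = 0.0192) did, a 1.64-fold increase that also passed in each of the 24 fits without 1 rat. RefSeq lists several near-identical copies of Ftl1, among which the authors' counting could have divided reads, so its level is uncertain.

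Fth1, the heavy chain that oxidizes iron for storage, lay between 541 and 1005 CPM in all 24 rats. Its medians were 775 (Sed), 665 (CC-Sed), 803 (Ex) and 709 CPM (CC-Ex), and the groups overlapped widely. The average CC effect was -0.15, with a 95% interval from -0.36 to 0.06 (edgeR adjusted p = 0.259). The ratio of Ftl1 to Fth1 counts within each library, which needs no scaling between libraries, had medians of 0.0269 in Sed, 0.0408 in CC-Sed, 0.0222 in Ex and 0.0372 in CC-Ex. The highest ratio was 0.109, in CC-Sed replicate 6. Relative to Sed, the mean log2 ratio of CC-Sed was higher by 0.78, with a two-sided p of 0.0606 by exact permutation and 0.160 after Benjamini-Hochberg adjustment over 4 comparisons. Relative to Ex, that of CC-Ex was higher by 0.75, with values of 0.0801 by exact permutation and 0.160 after adjustment. Neither difference passed the test.

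The transporters were small in their differences. Slc11a2, which passes iron out of the endosome after Tfrc has brought it in, ranged from 24.5 to 30.1 CPM in Sed (median 26.4) and between 19.5 and 24.6 CPM in CC-Sed (median 22.3). In all, 5 of 6 CC-Sed rats were below every Sed rat. It ranged from 23.0 to 31.7 CPM in Ex (median 28.5) and between 19.7 and 30.5 CPM in CC-Ex (median 21.5), where 4 of 6 rats were below every Ex rat and replicate 4 held the value of 30.5 CPM. The Log2FC was -0.26 (edgeR adjusted p = 0.0897) and -0.30 (edgeR adjusted p = 0.0957). The average CC effect was -0.28 (standard error 0.07, edgeR adjusted p = 0.00644), or 1.21-fold lower, and it passed in each of the 24 fits without 1 rat.

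Slc40a1, the only known iron exporter of mammalian cells, lay between 2.04 and 10.9 CPM with wide overlap of all groups. Its average CC effect was -0.29, with a 95% interval from -0.74 to 0.15 (edgeR adjusted p = 0.299). Ireb2, the iron sensor, had medians of 24.3 (Sed), 24.5 (Ex), 28.2 (CC-Sed) and 24.3 CPM (CC-Ex). All but 1 of the 24 rats lay between 20.3 and 31.6 CPM, and CC-Ex replicate 5 held 51.6 CPM. The Log2FC of Ireb2 in Ex vs. CC-Ex was 0.21 with that rat and -0.06 without it. The average CC effect was 0.20 (edgeR adjusted p = 0.189), and 0.05 without that rat.

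Among the 6 tested genes, 1 was called higher and 0 lower in Sed vs. CC-Sed, against 4.3% of all genes called higher and 2.16% called lower (edgeR adjusted p under 0.05). None was called in Ex vs. CC-Ex, where 0.875% of genes were called higher and 0.12% lower. DESeq2 called 1 of the 6 in that comparison. At an unadjusted p under 0.05, 3 of the 6 passed in each comparison (Hmox1, Ftl1 and Slc11a2), against 28.4% of all genes in Sed vs. CC-Sed and 22.6% in Ex vs. CC-Ex. In the average CC effect, 2 of the 6 were called higher, against 17.2% of all genes, and 1 lower, against 10.6%. The median Log2FC of the 6 genes in the average CC effect was 0.02, and that of all genes was 0.01, with members on both sides of 0.

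**Figure D2:**
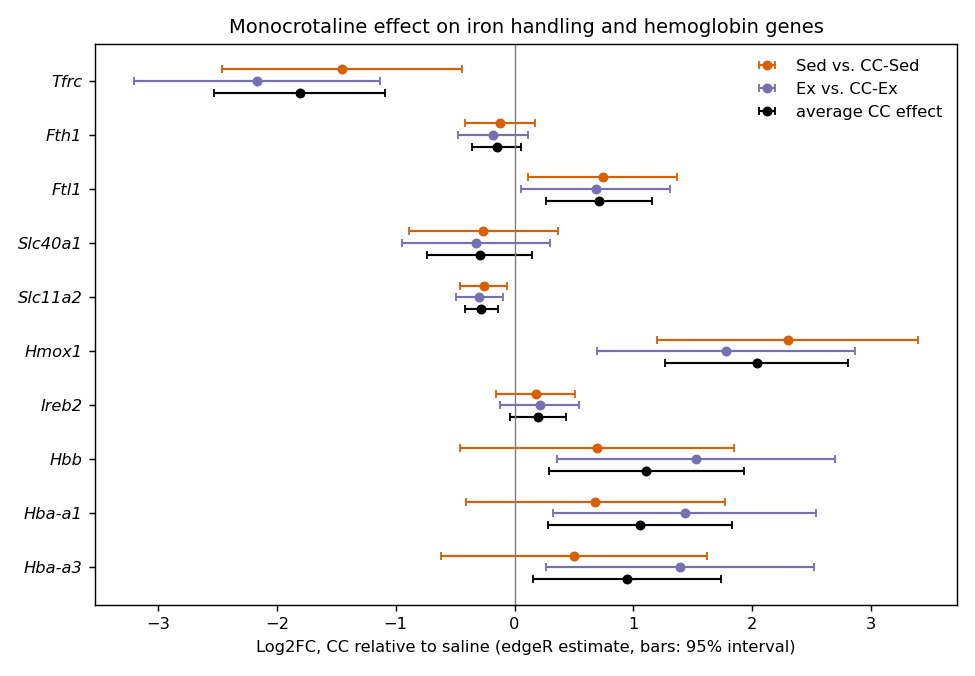
Log2FC of the 10 genes (CC relative to saline) in Sed vs. CC-Sed, in Ex vs. CC-Ex and as the average CC effect, with points for the edgeR estimates and bars for 95% intervals. Of the average effects Tfrc lies lowest, with an average of -1.81, and Hmox1 highest, with 2.04, while the average intervals of Fth1, Slc40a1 and Ireb2 include 0.

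The hemoglobin genes spread widely within the CC groups, in muscle taken from rats that had been bled through the heart. Hbb ranged from 21.6 to 58.8 CPM in Sed (median 48.6) and between 22.4 and 187 CPM in CC-Sed (median 51.6). It ranged from 37.9 to 85.2 CPM in Ex (median 63.3) and between 13.2 and 425 CPM in CC-Ex (median 142). The highest 2 CC-Ex rats were replicates 2 and 3, with 425 and 261 CPM, and the lowest of all 24 rats was replicate 5 of the same group. The average CC effect was 1.11 (standard error 0.40) for Hbb, while Hba-a1 had 1.06 (standard error 0.37) and Hba-a3 0.95 (standard error 0.38). In Sed vs. CC-Sed the Log2FC of Hbb was 0.69 and that of Hba-a3 was 0.50, against 0.17 and -0.03 without CC-Sed replicate 4. These values chose the genes and carry no test.

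The 3 globin transcripts rose and fell together from rat to rat. The ratio of Hbb to Hba-a1 counts lay between 0.902 and 1.27 in all 24 rats, while the level of Hbb itself spanned from 13.2 to 425 CPM. The ratio of Hba-a3 to Hba-a1 lay between 0.331 and 0.488. Within CC-Ex, which held the widest range of hemoglobin, the coefficient of variation was 81.6% for the level of Hba-a1 and 2.82% for the ratio of Hba-a3 to Hba-a1. Hba-a1 and Hba-a3 are paralogs of nearly the same sequence, so reads could have been divided between them and their separate levels are uncertain. The steadiness of their ratio could come from the counting alone, which was not tested.

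**Figure D3:**
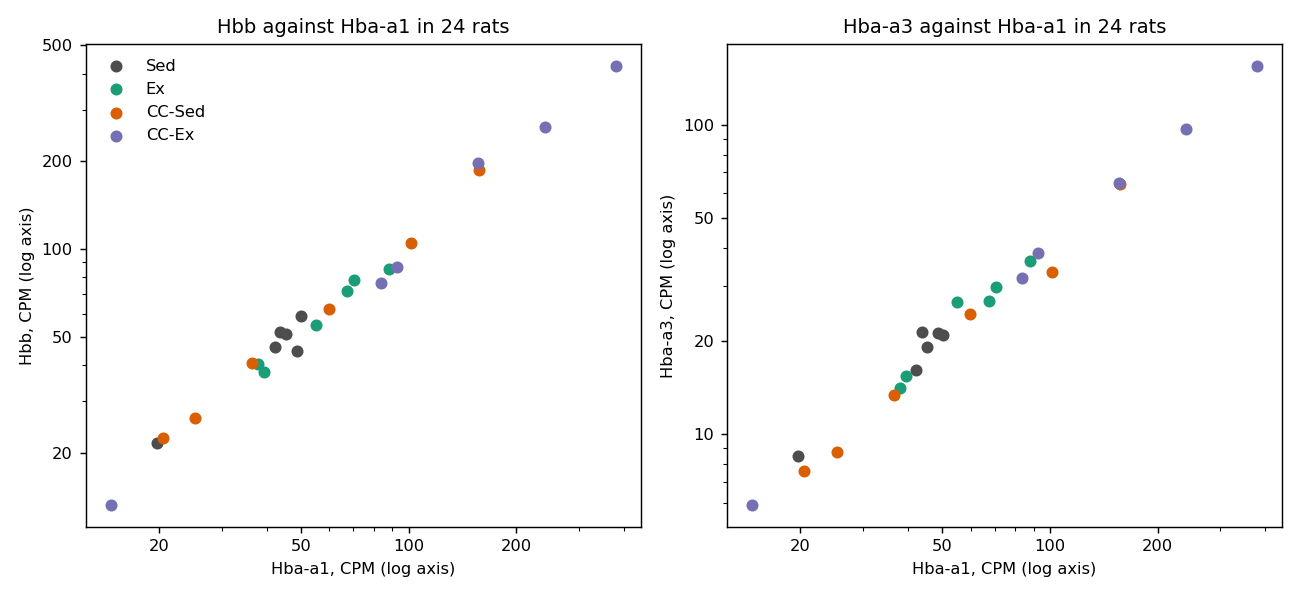
CPM of Hbb (left) and Hba-a3 (right) against CPM of Hba-a1 on log axes, with each point as 1 of the 24 rats and colours for the groups. The points follow a line across the whole range, from CC-Ex replicate 5 with 13.2 CPM of Hbb to CC-Ex replicate 2 with 425 CPM.

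The promoters of both alpha globins are shown because the genes are paralogs, and shared control of their transcripts was not tested. Each is the 150 bases before the start site on the minus strand in GRCr8, at chr10:15842581-15842730 for Hba-a1 and chr10:15816944-15817093 for Hba-a3. Capitals mark the CCAAT box, CCAAT, and the TATA box, TATAAA.
Hba-a1: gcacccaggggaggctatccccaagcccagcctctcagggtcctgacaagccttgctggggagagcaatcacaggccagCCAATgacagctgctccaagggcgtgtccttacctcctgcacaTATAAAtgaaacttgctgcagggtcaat
Hba-a3: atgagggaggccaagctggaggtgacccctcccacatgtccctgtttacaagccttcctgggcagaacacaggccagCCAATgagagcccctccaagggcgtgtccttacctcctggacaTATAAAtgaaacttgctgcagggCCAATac
In a global alignment of these windows 122 positions were identical, with 15 mismatches and 26 gap positions. Both hold a CCAAT box and a TATA box, which begin 71 and 28 bases before the start of Hba-a1 and 73 and 30 bases before that of Hba-a3, and Hba-a3 holds a second CCAAT 7 bases before its start. On either strand, CCAAT was found in 34% and TATAAA in 12.9% of the 33469 promoters. Of the 10 genes, 7 had a promoter in that annotation.

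Of 11 listed erythroid markers 4 were measured, and 3 of them were these globin genes. The other, Bpgm, is a red cell enzyme that muscle may also express. Its Log2FC was -0.65 in Sed vs. CC-Sed and -0.30 in Ex vs. CC-Ex. In the average CC effect it was -0.47 (edgeR adjusted p = 0.151), opposite in sign to the 3 globin genes. Alas2, Slc4a1 and the other red cell markers of the list were not analysed here, so red cells and their precursors cannot be told apart with these genes. Of 8 endothelial markers 6 were measured, and 2 of them (Vwf and Kdr) were called higher in the average CC effect, where 17.2% of all genes were. The Log2FC of Cdh5, Tek and Emcn was below 0, at -0.20, -0.10 and -0.33, and the median of the 6 was 0.04. The summed level of the 6 ranged from 180 to 294 CPM in Sed and between 211 and 333 CPM in CC-Sed. It ranged from 192 to 280 CPM in Ex and between 208 and 341 CPM in CC-Ex. CC-Ex replicates 2 and 3, the rats richest in hemoglobin, were left out in 1 fit, a choice made after the data were seen. The average CC effect was then -1.70 for Tfrc, 1.92 for Hmox1, 0.67 for Ftl1 and -0.26 for Slc11a2, each with its direction kept. No CC-Sed rat was left out, and CC-Sed replicate 4 and CC-Ex replicate 6, with summed hemoglobin of 409 and 418 CPM, stayed in. The part of blood in these values was not tested.

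Training alone was compared in saline rats (Sed vs. Ex) and in monocrotaline rats (CC-Sed vs. CC-Ex). No gene of the table was called in Sed vs. Ex (0%), in CC-Sed vs. CC-Ex (0%) or in the difference between the trained and the sedentary CC effect (0%), so none of the iron genes was. The Log2FC of Tfrc was 0.49 in Sed vs. Ex, with a 95% interval from -0.50 to 1.48. In all, 4 of 6 Ex rats were above every Sed rat and the other two were below every Sed rat, so Tfrc was more variable in Ex, with a coefficient of variation of 50.2% against 16.0% in Sed. In CC-Sed vs. CC-Ex the Log2FC of Tfrc was -0.22, with a 95% interval from -1.22 to 0.77, and 0.63 without CC-Sed replicate 4.

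The Log2FC of Hmox1 was -0.18 in Sed vs. Ex (95% interval from -1.25 to 0.89) and -0.70 in CC-Sed vs. CC-Ex (95% interval from -1.75 to 0.35), and the latter was -0.25 without CC-Sed replicate 6. The other 5 iron genes had Log2FC from -0.19 (Ftl1) to 0.09 (Slc40a1) in Sed vs. Ex and from -0.25 (Ftl1) to 0.05 (Ireb2) in CC-Sed vs. CC-Ex. At an unadjusted p under 0.05, 0 of 7 iron genes passed in Sed vs. Ex, where 1.09% of all genes did, and 0 of 7 in CC-Sed vs. CC-Ex, where 2.16% did. In the difference between the CC effects 0 of 6 passed, where 1.42% of all genes did. The counts at adjusted p under 0.05 were also 0 with DESeq2 and limma-voom.

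In CC-Sed vs. CC-Ex the 3 hemoglobin genes had Log2FC values of 1.26 (Hbb), 1.27 (Hba-a1) and 1.37 (Hba-a3). Their unadjusted edgeR p-values were 0.0352, 0.0254 and 0.0197, where 2.16% of all genes were under 0.05, and none passed after adjustment (edgeR adjusted p = 1.00). The 3 transcripts rose and fell together, so these are not 3 separate results. The genes were also chosen with the levels in these CC rats known. By the exact permutation test the two-sided p-values were 0.271, 0.227 and 0.169. Without CC-Ex replicate 2 these Log2FC were 0.78, 0.81 and 0.91. In Sed vs. Ex they were 0.42, 0.52 and 0.48, with an overlap of the groups for each gene.

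Within groups, rats that were high in Hmox1 were also high in Ftl1. All 28 pairs among the 7 iron genes and the mean of the hemoglobin genes were compared over the 24 rats, after each gene's group mean of log2 CPM had been subtracted, with labels permuted within groups 100000 times. For Ftl1 and Hmox1, Pearson's r was 0.79 (permutation p = 0.000150, adjusted p = 0.00420) and Spearman's rho 0.75 (permutation p = 0.000320, adjusted p = 0.00896). The r was 0.70 without the 2 rats farthest from the median of Ftl1, 0.79 in the 12 saline rats and 0.79 in the 12 monocrotaline rats. The relation was thus present in saline rats, where Hmox1 was low, and in monocrotaline rats.

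Tfrc ran the opposite way to Hmox1. Pearson's r was -0.64 (permutation p = 0.00231, adjusted p = 0.0162) and Spearman's rho -0.64 (permutation p = 0.00256, adjusted p = 0.0239). The r was -0.58 without the 2 rats farthest from the median of Tfrc, -0.48 in saline rats and -0.70 in monocrotaline rats. For example, CC-Sed replicate 4 held the highest Tfrc of its group and the second lowest Hmox1, at 234 and 9.35 CPM. Ex replicate 6 held the lowest Tfrc of its group and the second highest Hmox1, at 95.7 and 6.43 CPM.

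Ireb2 was low where hemoglobin was high, with a Pearson's r of -0.83 (permutation p = 0.000460, adjusted p = 0.00644) and a Spearman's rho of -0.67 (permutation p = 0.00187, adjusted p = 0.0239). The relation was seen in the monocrotaline rats, with an r of -0.90 there and -0.17 in saline rats, and the r was -0.66 without the 2 rats farthest from the median of Ireb2. Slc40a1 and Ireb2 had a Pearson's r of -0.64 (permutation p = 0.00192, adjusted p = 0.0162) and a Spearman's rho of -0.53 (permutation p = 0.00727, adjusted p = 0.0473). The r was -0.41 without the 2 rats farthest from the median of Slc40a1, -0.26 in saline rats and -0.79 in monocrotaline rats. Slc40a1 and Slc11a2 passed by rank alone, with a Spearman's rho of -0.56 (permutation p = 0.00844, adjusted p = 0.0473) and a Pearson's r of -0.48 (permutation p = 0.0582, adjusted p = 0.181). In the remaining 23 pairs neither measure passed after adjustment.

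**Figure D4:**
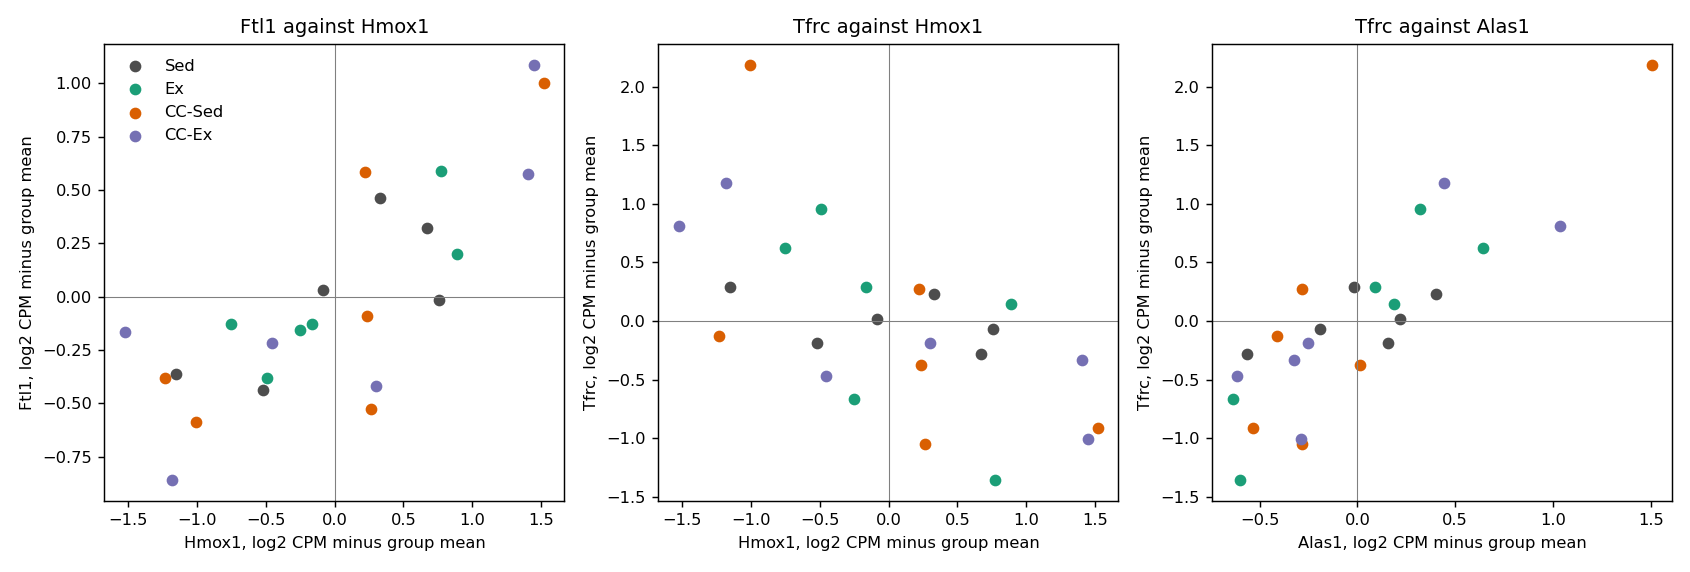
Log2 CPM minus the group mean for Ftl1 against Hmox1 (left), Tfrc against Hmox1 (middle) and Tfrc against Alas1 (right), with each point as 1 of the 24 rats and colours for the groups. Ftl1 rises with Hmox1 (r = 0.79), Tfrc falls with Hmox1 (r = -0.64) and Tfrc rises with Alas1 (r = 0.86).

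The genes whose pattern over the 24 rats was most like that of Tfrc, by Spearman's rho of log2 CPM minus the group mean, were Alkbh3 (0.83), Alas1 (0.83), Mrpl42 (0.80), Slc35a4 (0.79) and Timm17a (0.79). The most opposite were Armcx4 (-0.80), Ero1a (-0.80), Reps1 (-0.79), Dynlt2b (-0.78) and Cbr1l2 (-0.76). They were picked from 10850 genes for this likeness, so the values are a description, and all genes of a rat share a library. Alas1 makes the first and rate-limiting step of heme synthesis outside red cells. It was also in a fixed list of other iron and heme genes, and its rho with Tfrc lay between 0.80 and 0.85 when each rat was left out in turn.

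Genes of heme synthesis shared the sign of Alas1. All 9 measured heme synthesis genes had a positive rho with Tfrc, from 0.23 (Ppox) to 0.83 (Alas1), with a median of 0.57. Fech, which inserts iron into heme, had a rho of 0.69. Among 30 mitochondrial iron and iron-sulfur genes, 24 had a positive rho, with a median of 0.45 and the highest value for the cysteine desulfurase Nfs1 (0.77). Over all other genes the median rho was -0.05 and 44.9% were positive. Whether mitochondrial genes outside the iron lists share this likeness to Tfrc was not tested. Of 9 measured iron import genes only 4 had a positive rho, with a median of -0.21. Of 4 measured regulators of iron genes 1 had a positive rho, with a median of -0.39. The 4 measured genes of the hepcidin and erythropoietin axis all had a negative rho, from -0.30 to -0.04.

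In group values Alas1 followed Tfrc with smaller differences. It ranged from 55.9 to 109 CPM in Sed (median 86.8) and between 37.7 and 155 CPM in CC-Sed (median 44.9). It ranged from 59.1 to 143 CPM in Ex (median 101) and between 32.5 and 102 CPM in CC-Ex (median 41.3). As for Tfrc, the highest CC-Sed rat was replicate 4, with 155 CPM against at most 55.3 CPM in the others. The average CC effect on Alas1 was -0.63 (standard error 0.24), just short of the threshold (edgeR adjusted p = 0.0508).

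The rest of the pathway was read from a list of 92 iron and heme genes, of which 78 were measured. In Sed vs. CC-Sed 4 of the 78 were called higher and 1 lower, and in Ex vs. CC-Ex 1 was called higher and 0 lower. In the average CC effect 8 were called higher and 2 lower, and the median Log2FC of the 78 was -0.02. The calls made up 6.41% of the list in Sed vs. CC-Sed, where 4.3% of all genes were called higher and 2.16% lower, and 1.28% in Ex vs. CC-Ex, where 0.875% were called higher and 0.12% lower. They made up 12.8% of it in the average CC effect, where 17.2% of all genes were called higher and 10.6% lower. Single rats decided many of these calls. Without CC-Sed replicate 4, 12 were called in Sed vs. CC-Sed and 24 in the average CC effect, and without Sed replicate 2, CC-Sed replicate 1 or CC-Sed replicate 6, 1 was called in Sed vs. CC-Sed. In Ex vs. CC-Ex, 4 were called without CC-Ex replicate 4 and 0 without CC-Ex replicate 5, CC-Ex replicate 6 or any 1 of the 6 Ex rats. None of the 78 was called by edgeR in the training comparisons, nor by DESeq2 or limma-voom.

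Of only 4 measured regulators of iron genes, 3 were called higher in the average CC effect, where 17.2% of all genes were. Bach1, a heme-sensing repressor of Hmox1 and ferritin, rose by 1.55 on the log2 scale (standard error 0.33, edgeR adjusted p = 0.00281). Its CPM ranged from 1.76 to 3.42 in Sed, from 2.82 to 14.3 in CC-Sed, from 1.71 to 3.79 in Ex and from 2.43 to 22.7 in CC-Ex. Nfe2l2, the activator NRF2 that competes with Bach1 at such genes, rose by 0.68 (standard error 0.18, edgeR adjusted p = 0.00856). Egln3, an iron-dependent prolyl hydroxylase of the hypoxia pathway, rose by 1.40 (standard error 0.23, edgeR adjusted p = 0.000478), and it was the gene of the list called in Ex vs. CC-Ex, where 4 of 12 fits without 1 rat called it. CC-Ex replicate 5 was highest in its group for all 3, and without it the average CC effects were 1.16, 0.48 and 1.14, each still called.

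Lcn2, a siderophore-binding protein of the acute phase, rose by 1.12 in the average CC effect (standard error 0.28, edgeR adjusted p = 0.00743). Its CPM ranged from 0.919 to 1.38 in Sed, from 1.06 to 4.79 in CC-Sed, from 0.952 to 1.97 in Ex and from 0.816 to 6.54 in CC-Ex, where 4 rats were above and 2 below every Ex rat. Neither pair passed alone, with Log2FC values of 1.19 (edgeR adjusted p = 0.0691) and 1.06 (edgeR adjusted p = 0.135). In the average CC effect the mitochondrial iron carrier Slc25a28 rose by 0.33 (edgeR adjusted p = 0.00338) and the cytosolic iron-sulfur factor Mms19 by 0.26 (edgeR adjusted p = 0.0116). Ciapin1, of the same machinery, rose by 0.65 (edgeR adjusted p = 0.0365) and the iron chaperone Pcbp2 by 0.19 (edgeR adjusted p = 0.0379). Of the 24 fits without 1 rat, only 15 called Ciapin1 and only 12 called Pcbp2, and without CC-Ex replicate 5 their values were 0.40 and 0.12. Flvcr2, a membrane transporter of the heme transport list, fell by 0.72 (edgeR adjusted p = 0.00917).

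Flvcr2, Slc39a14, Slc25a28 and Bach1 were called in Sed vs. CC-Sed and not in Ex vs. CC-Ex, while Egln3 was called in both. For Slc25a28 the edgeR adjusted p-values were 0.0162 and 0.215. For Bach1 they were 0.0495 and 0.0813, and its call in Sed vs. CC-Sed held in 2 of 12 fits without 1 rat. Flvcr2 ranged from 1.62 to 3.14 CPM in Sed and between 0.712 and 1.53 CPM in CC-Sed. These levels are low, with only 30 to 56 counts per rat in CC-Sed. The Log2FC of Flvcr2 was -1.13 in Sed vs. CC-Sed (edgeR adjusted p = 0.0197) against -0.31 (edgeR adjusted p = 0.470) in Ex vs. CC-Ex. Slc39a14, a carrier of iron that is not bound to transferrin, rose by 0.27 in Sed vs. CC-Sed (edgeR adjusted p = 0.0446, called in 3 of 12 fits without 1 rat), while in Ex vs. CC-Ex its Log2FC was 0.02 (edgeR adjusted p = 0.899). The difference between the trained and the sedentary effect did not pass for Flvcr2 or Slc39a14 (edgeR adjusted p = 1.00 for both), nor for Slc25a28 or Bach1. In CC-Ex Slc39a14 ranged from 14.4 to 18.5 CPM, and 5 of the 6 rats were below every CC-Sed rat, whose range was 16.8 to 21.4 CPM.

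The partners of the iron sensor showed no call. In the average CC effect the Log2FC was 0.02 for Aco1, the other iron regulatory protein, 0.12 for Fbxl5, the ubiquitin ligase adaptor that removes Ireb2, and -0.16 for Ncoa4, the receptor for ferritin breakdown. It was -0.02 for Hjv, a coreceptor of hepcidin regulation made by muscle, -0.02 for Erfe and 0.20 for myoglobin (Mb). The signs of Aco1, Hjv and Erfe turned under other settings. The edgeR adjusted p-values of the 6 genes lay between 0.130 and 0.957. The 95% intervals were narrow for Aco1, from -0.16 to 0.21, and wide for Ncoa4, from -1.02 to 0.71.

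**Figure D5:**
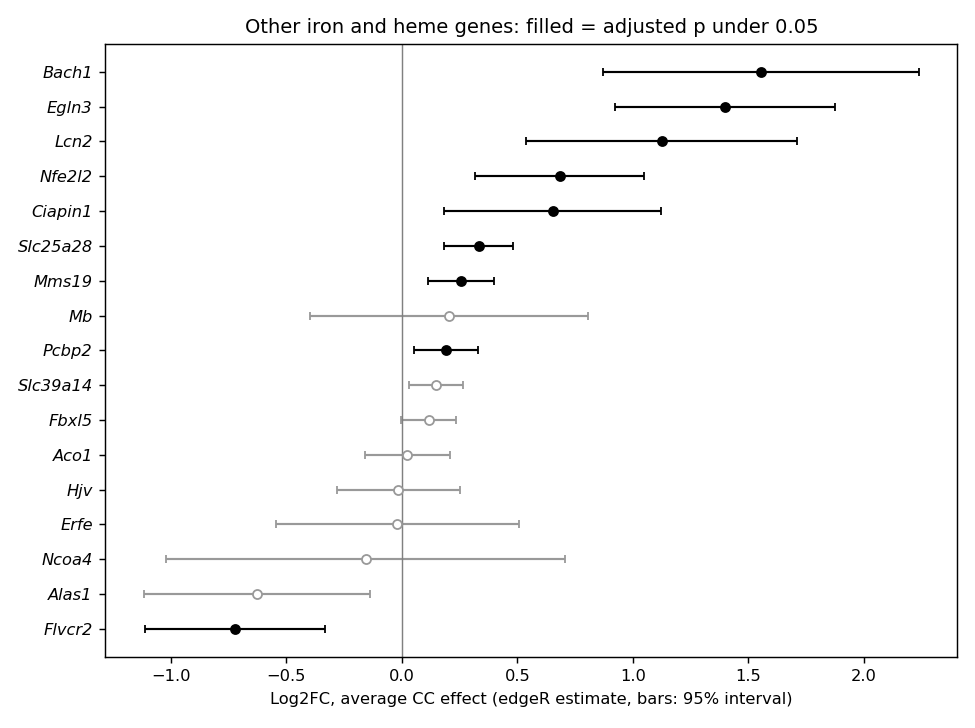
Average CC effect (Log2FC, points) with 95% intervals (bars) for 17 other iron and heme genes, with filled points for edgeR adjusted p under 0.05 and open points for the rest. Bach1 and Egln3 lie highest, with 1.55 and 1.40, and Flvcr2 lowest, with -0.72.

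Markers of other responses and cell types were read in the same comparisons. Of 8 hypoxia response genes, all measured, 4 were called higher in Sed vs. CC-Sed, 1 in Ex vs. CC-Ex and 5 in the average CC effect, against 4.3%, 0.875% and 17.2% of all genes. The median Log2FC of the 8 was 0.83 in the average CC effect. Among those called in the average CC effect were Adm (Log2FC 1.81) and Bnip3 (Log2FC 1.41). Not called there were Pdk1 (Log2FC 0.24), Vegfa (Log2FC 0.01) and P4ha1 (Log2FC -0.11). The summed level of the 8 ranged from 535 to 964 CPM in Sed and between 791 and 1710 CPM in CC-Sed. It ranged from 557 to 998 CPM in Ex and between 794 and 2862 CPM in CC-Ex. Of 6 fibroblast markers 3 were called lower in the average CC effect, against 10.6% of all genes. These were the collagens Col1a1, Col1a2 and Col3a1, while Lum (Log2FC -0.99), Pdgfra (Log2FC -0.37) and Dcn (Log2FC -0.08) were not called. The summed level of the 6 had medians of 1597 (Sed), 792 (CC-Sed), 2063 (Ex) and 474 CPM (CC-Ex). The part of either list in the values of Tfrc and Hmox1 was not tested.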

How the data were processed

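RNA-seq libraries from poly-A RNA of the medial gastrocnemius of 24 rats were used, 1 per animal, from a stranded kit. The authors trimmed the reads with Trim Galore, ran Salmon against rat transcripts of build mRatBN7.2 for quantification and summed them to genes with tximport, and they named DESeq2 1.44.0 in their processing notes. The deposited values are estimated counts per gene, held as whole numbers of at least 10 in each rat, so genes at low counts are not in the table. The totals per rat ran from 37816239 to 50350554 counts.

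Groups and replicate numbers were taken from the labels. The library numbers in the sample descriptions ran from 1 to 14 in CC-Ex and from 4 to 21 in CC-Sed. They ran from 7 to 23 in Ex and from 9 to 24 in Sed. Library number and group are thus partly confounded, and what the numbers stand for is not given. Counts were scaled by TMM and fitted in R 4.3.3 with edgeR 4.0.16 (quasi-likelihood F test, 1 model of the 4 groups), with Benjamini-Hochberg adjustment over 10851 genes. A call had an adjusted p under 0.05. Log2 CPM used a prior count of 2. A 95% interval is the Log2FC with its standard error under the fit's t distribution. On simulated data for Sed vs. CC-Sed, the fit over 10851 genes found 74 of 100 genes changed by a Log2FC of 1 and 100 of 100 changed by 2, with 12 false calls. The simulated counts were drawn independently for each gene, so no rat stood apart in many genes. Recovery for the genes described here may differ. An exact test of 6 against 6 rats cannot give a two-sided p under 0.00216.

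The genes and the lists were chosen with earlier results of these data known. Named genes were the 10 members, every gene of the iron list called in at least 1 comparison (except 1 not reported here), Aco1, Fbxl5, Ncoa4, Hjv, Erfe and Mb, the 5 genes most and least like Tfrc, and marker lists of 10 cell types or responses. Of these lists, no neutrophil marker of 4 was measured. The 1 platelet marker of 4, the 2 adipocyte markers of 4 and the 5 slow-fibre markers of 7 gave no call, except 1 adipocyte marker called lower in the average CC effect. The slow-fibre markers still varied widely, with a median Log2FC of 1.70 in Sed vs. CC-Sed and 0.16 in Ex vs. CC-Ex. Their mean log2 CPM per rat ran from 2.72 in CC-Ex replicate 5 to 11.0 in CC-Sed replicate 5. The absence of a call therefore does not mean that fibre content was alike. Bach1, Nfe2l2 and other list members were read per gene, with no test of a list. Alternatives were DESeq2 1.42.0, upper-quartile scaling, limma-voom (limma 3.58.1), other filters and covariates, a replicate block, an exact permutation test, another prior count and each rat left out in turn. RefSeq promoters came from build GRCr8, which differs from the build of the counts. The replicates were separate animals.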

Additional observations from a re-analysis of the deposited data

Results flagged for a closer look

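For 28 genes in each of the 4 groups, the highest and lowest of the 6 rats were compared with the rest by Dixon's gap at the 95% level, and 13 values lay apart. By chance about 1 in 20 such sets would hold one. CC-Ex replicate 5 gave 6 of them. Its levels were 51.6 CPM for Ireb2 (at most 25.7 CPM in the other CC-Ex rats), 22.7 CPM for Bach1 (at most 8.10), 723 CPM for Egln3 (at most 278), 76.9 CPM for Ciapin1 (at most 30.1), 129 CPM for Nfe2l2 (at most 63.6) and 1.88 CPM for Erfe (at most 0.936). CC-Sed replicate 4 gave 3, with 234 CPM for Tfrc (at most 62.1 CPM in the other CC-Sed rats), 992 CPM for Fth1 (at most 722) and 155 CPM for Alas1 (at most 55.3). CC-Sed replicate 6 held 53.98 CPM of Hmox1, where the others held at most 22.6 CPM. CC-Ex replicate 4 held 30.5 CPM of Slc11a2, against at most 23.3 CPM. Sed replicate 5 held 19.7 CPM of Hba-a1, against at least 42.3 CPM. Sed replicate 1 held 12.7 CPM of Mms19, against at most 10.5 CPM.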

How the results depend on the processing

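The count of called iron genes among the 6 tested was 1 in Sed vs. CC-Sed and became 2 with upper-quartile scaling, with only the 12 rats compared, with limma-voom and with the hemoglobin level as a covariate, and it lay between 0 and 1 without 1 rat. In Ex vs. CC-Ex it was 0 and became 1 with DESeq2, 2 with limma-voom and 4 with the hemoglobin covariate (0 to 2 without 1 rat). In the average CC effect it was 3 and became 5 with the hemoglobin covariate and 1 when a Log2FC of at least 1 was also asked. Of the 78 list genes, 5 were called in Sed vs. CC-Sed, against 3 with upper-quartile scaling, 3 with that Log2FC minimum, 11 with limma-voom and 10 with the hemoglobin covariate (1 to 12 without 1 rat). In Ex vs. CC-Ex the 1 call became 3 with DESeq2, 0 with only the 12 rats, 6 with limma-voom and 15 with the hemoglobin covariate (0 to 4 without 1 rat). The 10 calls of the average CC effect became 16 with DESeq2, 26 with limma-voom, 28 with the hemoglobin covariate, 16 with the slow-fibre level as a covariate and 3 with the Log2FC minimum (7 to 24 without 1 rat). The cause of these shifts was not tested. The counts of 0 in the training comparisons and in the difference between the CC effects stayed 0 under every alternative run.

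The replicate numbers did not pair the rats, since same-numbered rats had residual correlations from -0.59 to 0.37. With the replicate block, the list calls were 3 in Sed vs. CC-Sed and 0 in Ex vs. CC-Ex, and the other counts stayed within 1.5 times of those without it.

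Directions turned for small differences. With limma-voom the Log2FC was -0.030 for Hba-a3 in Sed vs. CC-Sed, and in Ex vs. CC-Ex it was 0.047 for Slc40a1, -0.057 for Ireb2 and -0.022 for Slc39a14 (-0.051 with upper-quartile scaling). Without 1 rat the ranges were -0.030 to 0.68 for Hba-a3, -0.055 to 0.28 for Ireb2 and -0.025 to 0.048 for Slc39a14. In the average CC effect Aco1 was at -0.044 with upper-quartile scaling, -0.0054 with the library number as a covariate, -0.021 with the hemoglobin covariate and -0.035 without CC-Ex replicates 2 and 3, a choice made after the data were seen (-0.014 to 0.055 without 1 rat). Hjv was at 0.0012 with the slow-fibre covariate and 0.0071 without those 2 rats (-0.083 to 0.018 without 1 rat). Erfe was at 0.054 with the library number, 0.038 with the hemoglobin covariate and 0.053 without those 2 rats (-0.21 to 0.058 without 1 rat). Tfrc in CC-Sed vs. CC-Ex was at 0.26 with limma-voom, 0.0074 without those 2 rats, 0.067 in the exact permutation test and 0.067 with a prior count of 0.5 (-0.53 to 0.63 without 1 rat), and its difference between the CC effects ranged from -1.02 to 0.13 without 1 rat. Of 2271 single-gene values under the alternatives, 2028 kept direction and side of the threshold, 139 lost and 62 gained the call, and 42 turned. Genes with counts under 10 in any rat were not in the table.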
